A study of Mus musculus with 360 samples.

Results

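Of the 360 cochlear cells in the series, 29 are control cells that the authors' deposited annotation places in the cluster it names WT Supp Cells, and these supporting cells are described here. They were set against the other control cells of 3 clusters, named WT Cells 1, WT Cells 2 and WT Cells 3, which hold 80, 29 and 20 cells. The supporting cells stood apart by high levels of Slc1a3, Slitrk6, Lgr6, Slc12a7, Sall1, Jag1, Lfng and Heyl. Slc1a3 encodes a glial-type glutamate and aspartate transporter, Lgr6 is a receptor of R-spondins, and Jag1, Lfng and Heyl belong to the Notch pathway. Fgfr1, Slc26a4, Ltbp2, Map1b and Cntn1 were lower in the supporting cells than in the pooled other cells. Ltbp2 and Cntn1 were, however, lower still in WT Cells 2. Among the markers proposed for the cluster, Lgr5, S100a1 and Cntn1, none was called higher under the rule used here.

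Each deposited sample is 1 sorted mouse cell. All control animals carried Fbxo2CreERT2, in which the Fbxo2 locus drives a Cre recombinase that tamoxifen activates, and Rosa26-tdTomato, a red fluorescent reporter that Cre switches on. The control animals did not carry the GAP allele that the other genotype of the series has. The animals received tamoxifen when 3 weeks old. At 5 weeks their cochleae were dissociated with papain and cells were sorted by tdTomato and EpCAM fluorescence into 96-well plates. EpCAM is a surface protein of epithelial cells, so the sort enriches epithelium in which the Fbxo2 promoter has been active. Libraries were made by SMART-MATQ, a single-cell RNA sequencing method, and transcripts were counted by unique molecular identifiers (UMIs), short tags that mark each copied molecule.

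Supporting cells of the organ of Corti surround the sensory hair cells and are joined to each other by gap junctions. Pillar and Deiters cells lie around the outer hair cells, and inner phalangeal and border cells wrap the inner hair cells. They take up the potassium and glutamate that hair cells release, and in development the Notch pathway keeps them from becoming hair cells: the ligand Jag1 binds Notch receptors, Fringe enzymes such as Lfng modify those receptors, and Hes and Hey factors are the transcriptional targets. Lgr5 is widely used as a marker of a subset of supporting cells.

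Control cells are labelled with the letter A or B, taken here for plates although no label says so. The supporting cells were 20 of 90 annotated cells of letter A (22.2%) and 9 of 88 of letter B (10.2%). Together they held 458805 UMIs and the other cells 2986359. A supporting cell held a median of 13693 UMIs (8588 to 38481) and 3191 genes, and another control cell 21885 UMIs (8192 to 55129) and 3766 genes. Since the labels name no animals, the control genotype counts as 1 sample, and letter, plate and any animal cannot be told apart. The clusters were moreover drawn from these counts. No difference between them was therefore tested and no p-value is given. Levels are counts per 1000000 UMIs (CPM) over the pooled cells of a set. A value in brackets after a level or fold is an exact 95% interval for counting error only. Values are also given in each letter, but the letters are not replicates. WT Cells 1, 2 and 3 held 28, 18 and 12 cells in A and 52, 11 and 8 in B. The pooled other cells thus differ in make-up between the letters.

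Lgr5, a receptor of R-spondins (GRCm38 chromosome 10, 115450311 to 115587780), ranged over the supporting cells from 0 to 1470.2 CPM with a median of 116.4, and over the other control cells from 0 to 5165 with a median of 0. Both ranges overlapped almost wholly. Pooled, it was at 296 CPM (249 to 351) in supporting cells and 289 (270.0 to 309) in the others, a ratio of 1.03 (0.850 to 1.23). The letters disagreed on its direction: supporting cells were at 250.4 against 538 CPM in A and at 416 against 88.8 in B. By cluster the level was highest in WT Cells 2, at 956 CPM, while WT Cells 1 and WT Cells 3 were at 44.2 and 29.2. A UMI of Lgr5 was found in 22 of 29 supporting cells and 62 others. Once every cell was thinned to 8000 UMIs, which left out no cell, the shares were 62.1% and 31.01%. The supporting cells thus lay above WT Cells 1 and WT Cells 3 in Lgr5 and below WT Cells 2.

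S100a1, a calcium-binding protein used as a marker of pillar and Deiters cells (chromosome 3, 90511034 to 90514392), was detected in every supporting cell and in every other cell. Its level per cell ran from 3046 to 12983 CPM (median 6249) in supporting cells and from 731 to 15383 (median 4093) in the others, and the ranges overlapped throughout. The pooled ratio was 1.45 (1.39 to 1.505), at 1.53 in letter A and 1.29 in letter B. Cntn1, a neural adhesion protein of the immunoglobulin family (chromosome 15, 92051165 to 92341967), went the other way. It ranged from 0 to 393 CPM (median 77.96) per supporting cell and from 0 to 2436 (median 273) per other cell. The pooled level was 91.5 against 503 CPM, 5.49-fold lower (4.04 to 7.65), with 84.5 against 408 CPM in A and 109.95 against 579 in B. That difference came from WT Cells 1 and WT Cells 3, at 721 and 473 CPM, since WT Cells 2 were lower still, at 63.02. None of the 3 genes was therefore called higher in this cluster among control cells, but their values differed. S100a1 was higher in both letters by less than 2-fold. Lgr5 was above WT Cells 1 and WT Cells 3 and below WT Cells 2, and Cntn1 was lower than in the pool. Below, the cells are called supporting cells after the deposited name alone.

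Both genes behind the sort were present in the supporting cells. Fbxo2, a ubiquitin ligase subunit whose locus drives the Cre, had a UMI in all 29 cells and stood at 610.3 CPM (541 to 686) against 736 in the others. Epcam was at 246 CPM (203 to 296) against 182. Neither of them differed by 2-fold.

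**Figure D1:**
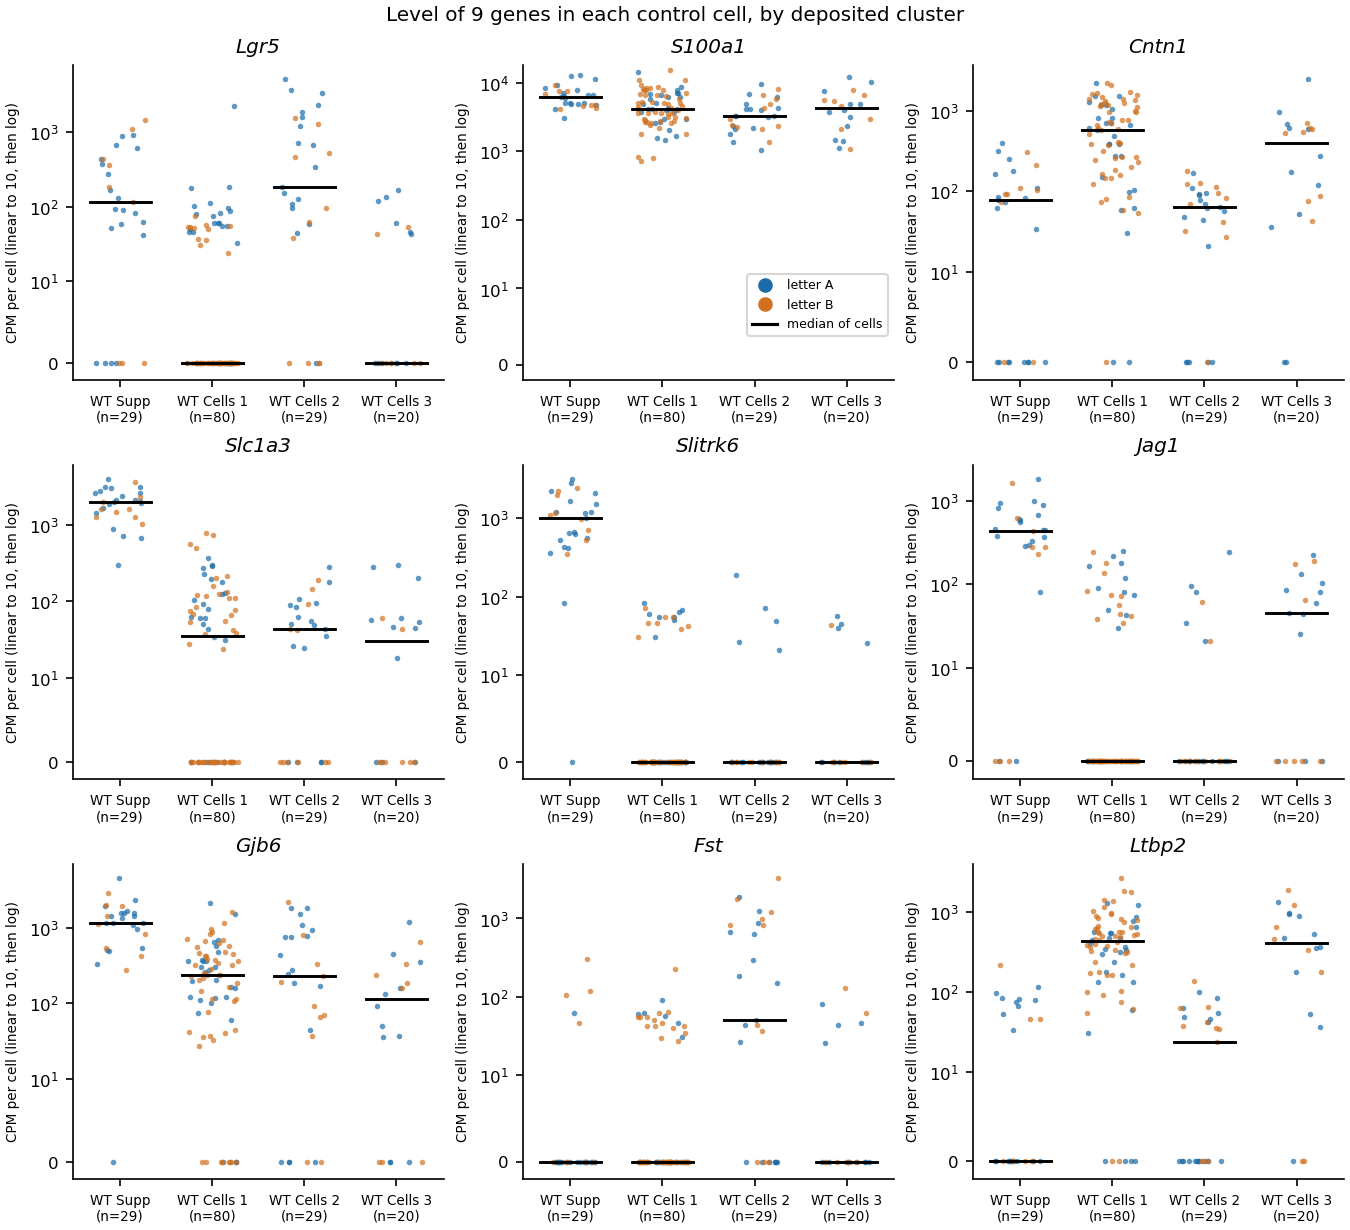
Level of 9 genes in each control cell, in CPM on an axis that is linear to 10 and logarithmic above, for the 4 clusters compared. Points are cells coloured by letter and black lines are medians of cells. Slc1a3, Slitrk6 and Jag1 have their highest medians in the supporting cells (WT Supp), and the S100a1 clouds of all clusters overlap.

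Among 9796 genes at 10 CPM or more in either set, 744 (7.59%) were called higher in the supporting cells and 1705 (17.4%) lower. Called means a log2 ratio of (CPM + 1) of 1 or more in size, detection in 5 or more cells of the higher set, no single cell with more UMIs than the other cells' sum divided by 2, and the same direction in both letters. At 100 CPM or more in the higher set, 390 genes were called higher and 338 lower. In each letter taken alone the ratio reached 2-fold for 457 of the higher and 1145 of the lower genes. Set at 3 counts, a gene with 0 UMIs in the supporting cells would be at 9.05 CPM in A and 23.6 in B. Genes below these levels can count as 2-fold lower in a letter through 0 UMIs there. Against every one of the 3 clusters taken singly, 416 genes were higher (4.25%) and 863 lower (8.81%). Against a single cluster 8.73% of genes were called higher and 16.5% lower for WT Cells 1, 10.4% and 13.1% for WT Cells 2, and 11.2% and 7.87% for WT Cells 3. The lower count is sensitive to the number of cells, since 5 cells are a smaller share of the other cells than of 29. Requiring the same share of cells in both sets, 5 of 29, a condition added after the data were seen, left 1204 lower genes. The 744 higher genes could not change, since for the supporting cells this is the same condition. Of the lower genes 193 had 0 UMIs in the supporting cells, whose limit of 3 counts is 6.54 CPM, and against that limit 62 of them are less than 2-fold lower.

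**Figure D2:**
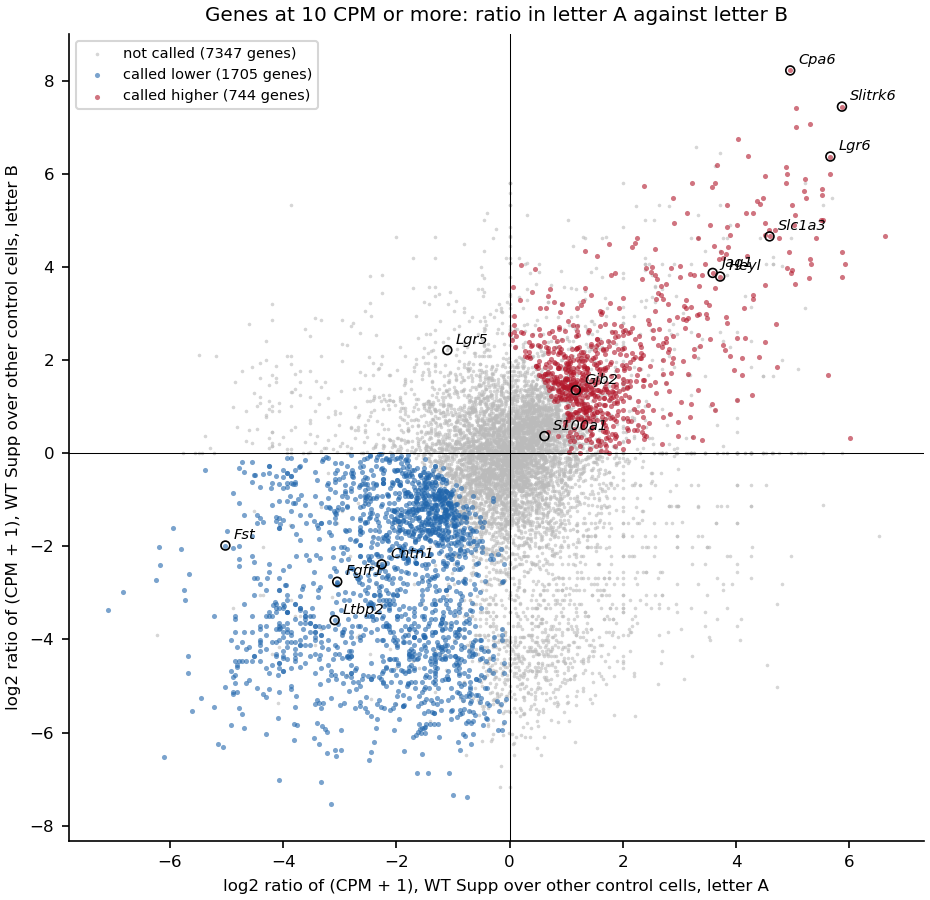
Log2 ratio of (CPM + 1), supporting cells over the other control cells, in letter A (horizontal) against letter B (vertical), for each gene at 10 CPM or more. Red points are the 744 genes called higher, blue the 1705 called lower and grey the rest. Slitrk6, Lgr6, Slc1a3, Jag1 and Heyl lie far out in both letters, while Lgr5 lies left of 0 in A and above 0 in B.

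Slitrk6, a leucine-rich repeat membrane protein needed for inner ear innervation (chromosome 14, 110748580 to 110755149), had the highest log2 ratio, 6.53. It ranged from 0 to 3182 CPM (median 1016) per supporting cell, and from 0 to 189.6 (median 0) per other cell. A UMI was present in 28 of 29 supporting cells and 26 others, and the ranges overlapped at the lowest supporting cells. Pooled levels of 1051 and 10.4 CPM gave a 101.2-fold difference (70.4 to 150.6), at 61.9-fold in A and 207-fold in B. Lgr6, the close relative of Lgr5 (chromosome 1, 134983301 to 135105276), ran from 0 to 2983 CPM (median 414) in supporting cells and from 0 to 154.02 (median 0) in the others. Its pooled level was 582 against 7.03 CPM, 82.8-fold higher (53.04 to 135.9), and it was at its lowest in WT Cells 2 (1.24 CPM), the cells with most Lgr5. Unlike Lgr5, Lgr6 was higher in both letters, at 697 against 12.8 CPM in A and 283 against 2.42 in B.

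Several other leading genes had few UMIs in the other cells. Sox2ot, the long noncoding RNA whose gene contains Sox2 in an intron, was at 139.5 CPM in 13 supporting cells and had 3 UMIs in the others, a ratio of 138.9 (45.4 to 691; 171.96 CPM in A and 54.98 in B). Tectb, the beta-tectorin of the tectorial membrane, was at 80.6 CPM in 7 cells against 1 UMI, a ratio of 241 (40.6 to 9766). The single UMI of Tectb in the others lay in letter A, where the ratio was 116.4. Plxnb3, a semaphorin receptor, had 19 UMIs in 7 supporting cells and 0 in the others, at least 41.2-fold higher against a limit of 3 counts over those cells. These genes were seen in a minority of the supporting cells.

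Ednrb, the endothelin B receptor, was at 390.1 CPM in 23 supporting cells and at 6.03 in the others (64.7-fold, 39.8 to 111.7; 35.9-fold in A and 234-fold in B). Dgkb, a diacylglycerol kinase, stood at 353 and 7.37 CPM (47.9-fold, 30.6 to 78.6; 32.8 in A and 83.2 in B). Prdm12, a transcriptional regulator known from sensory neurons, was at 272 and 3.35 CPM (81.4-fold, 42.8 to 173.8; 38.6 in A and 312 in B). For these 3 genes the fold was larger in B than in A, but for Ednrb and Prdm12 it rests there on few UMIs in the other cells. A single supporting cell of letter B, with 9110 UMIs, held 3183 CPM of Prdm12. No difference between the letters is read from these folds. The carboxypeptidase gene Cpa6, the synaptic scaffold gene Anks1b, the GABA-synthesising enzyme gene Gad1, the potassium channel gene Kcnq3, the phospholipase receptor gene Pla2r1 and the Dickkopf family gene Dkk3 lay between 135.1 and 222 CPM in supporting cells and between 1.67 and 2.34 CPM in the others. In letter A alone Cpa6, Anks1b and Kcnq3 were 36.7-, 48.2- and 50.6-fold higher, and in B the other cells had 0 UMIs of them. The small GTPase gene Rhoj had 38 UMIs in 12 supporting cells and 2 UMIs in 1 other cell. The use of strand in counting is not given in the sources used here, so counts are uncertain for genes whose exons overlap another gene. Antisense overlaps concern Axin2, Bmp6, Cdkn1a, Ceacam16, Cryab, Emx2, Entpd8, Epyc, Fgf10, Fgfr1, Fgfr3, Gata3, Kcnk1, Ltbp2, Ncam1, Notch1, Nr2f1, Pla2r1, Pllp, Prdm12, Rnf213, Sdcbp, Tecta, Tgfb2, Tpbg, Tuba1b, Wnt5a, Wrnip1 and Zfp704, and same-strand overlaps Fgfr2, Gata3, Glul, Notch2, Sox2ot, Spp1 and Tectb.

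Of the 15 genes with the highest ratios, a supporting cell thinned to 8000 UMIs had UMIs of 4 to 12 (median 7), and another control cell of 0 to 3 (median 0). Cells of WT Cells 1, 2 and 3 had at most 3, 2 and 2 of the 15 genes. The genes were selected for their ratio in these cells, so these counts describe the selection and are no separate evidence.

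**Figure D3:**
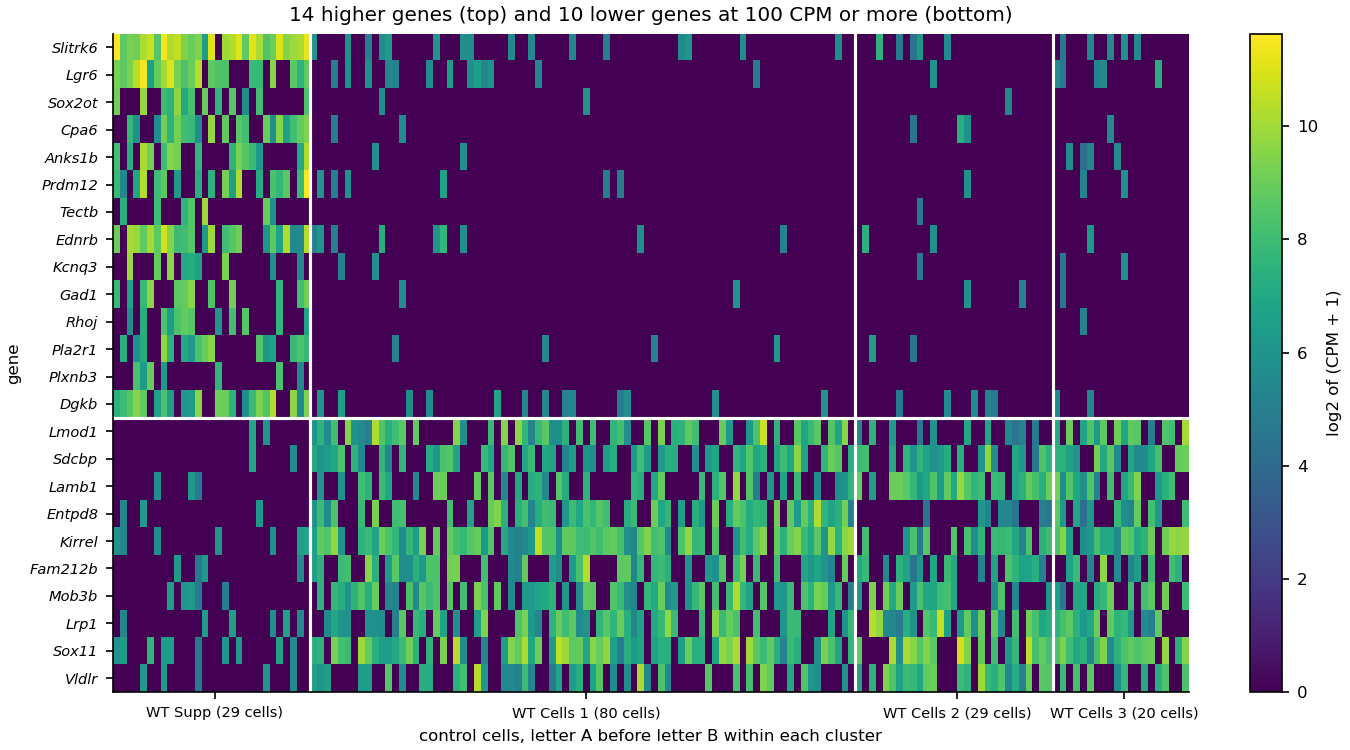
Log2 of (CPM + 1) in each control cell (columns, letter A before letter B within a cluster) for 14 of the 15 genes with the highest ratios (upper block) and the 10 lowest at 100 CPM or more (lower block). Colour runs from 0 (dark) to the highest level (yellow). Most signal of the upper block lies in the 29 supporting cells on the left, in patches. The lower block is sparse in those cells.

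The general supporting cell list had 16 of 17 genes at 10 CPM or more, 7 of them called higher and 2 lower. Their median log2 ratio was 0.86, beside -0.01 over all 9796 genes. Of all those genes 7.59% were called higher and 17.4% lower, the shares beside which the counts of every list below stand. Slc1a3 (chromosome 15, 8634124 to 8710764) ran from 295 to 3976 CPM (median 1976) per supporting cell and from 0 to 783 (median 38.2) per other cell. The ranges overlapped only at the lowest supporting cells and the highest others. The pooled 1835 against 71.3 CPM was 25.7-fold (22.1 to 30.05), at 24.4-fold in A and 25.7-fold in B, and every other cluster stood between 53.1 and 82.5 CPM. Thinned, Slc1a3 was found in all supporting cells and in 36.4% of the others (28.1 to 45.4). Sox2, a transcription factor of supporting cells and their progenitors, had 6 UMIs in 5 supporting cells and 0 in the others, at least 13.02-fold higher. The inhibitor of DNA binding Id2 was at 34.9 against 14.4 CPM (2.42-fold, 1.27 to 4.39). Genes of the list shared by all control clusters were Sox10, at 1308 and 1499 CPM, Cldn9, a claudin of the reticular lamina, at 1199 and 1373, and Sox9, at 543 and 957, none 2-fold apart. Cldn14, another claudin, was lower, at 13.1 against 36.8 CPM (2.82-fold, 1.25 to 7.84). Prox1, a transcription factor of pillar and Deiters cells, had 4 UMIs in 1 supporting cell and 13 in 2 others, and is the member below 10 CPM.

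Pillar and Deiters cell genes were split. Of 20, 13 were measured, 4 called higher and 3 lower, and the median was 0.53. Besides Slitrk6 and Tectb the higher genes were Emid1, an extracellular matrix protein gene, at 54.5 CPM against 1 UMI (ratio 162.7, 26.6 to 6681), and Bace2, a membrane protease gene, at 135.1 against 23.8 CPM (5.68-fold, 3.98 to 8.11; 6.69 in A and 5.02 in B). In letter A alone the Emid1 ratio was 68.2. Emid1 was seen in 8 and Bace2 in 12 of the 29 cells. Cntn1, Fgfr3 and Cryab were lower. Cryab, a small heat-shock protein gene, was at 161.3 against 326 CPM (2.02-fold, 1.60 to 2.60; 1.90 in A and 3.74 in B). Fgfr3, a receptor that pillar cells are known for, had 1 UMI in the supporting cells against 12.7 CPM, 5.84-fold lower with an interval of 0.986 to 237 that includes 1. The Notch target Hes5, Npy, Gfap, Bmp2 and Kcnk2 had 0 UMIs in the supporting cells, which allows up to 6.54 CPM each.

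The inner phalangeal and border cell list, of 7 genes all measured, had Slc1a3 and Gjb2 higher, none lower and a median of 0.41. Glul, glutamine synthetase, was at 466 and 492 CPM. Fabp7, a fatty acid-binding protein gene of inner phalangeal cells, had 7 UMIs in 2 supporting cells, both of letter A, and 0 in the others. Fabp7 was chosen after its values were seen, and too few cells held it for a call. Slc1a3 and Gjb2 are also members of the general supporting cell list, so the inner phalangeal and border cell list had no called gene of its own. No narrower name is given to the supporting cells.

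In the Notch list the ligand Jag1, the Fringe enzyme Lfng and the target Heyl were higher, and neither Notch1 nor Notch2 was called. Of 25 genes, 16 were measured, 3 called higher and 3 lower, with a median of -0.07, beside 7.59% higher and 17.4% lower of all genes. Jag1 (chromosome 2, 137081456 to 137116644) ranged from 0 to 1833 CPM (median 438) per supporting cell and from 0 to 252 (median 0) per other cell. Pooled, it was at 477 against 30.8 CPM, 15.5-fold higher (12.1 to 19.99), with 543 against 44.3 CPM in A and 306 against 19.9 in B. Most supporting cells lay above the highest of the others. Lfng (chromosome 5, 140607320 to 140615545) was found in 15 of 29 supporting cells, at up to 620.0 CPM, and in 6 others, at up to 231. Its pooled 91.5 and 3.35 CPM gave 27.3-fold (13.5 to 61.1), at 64.2-fold in A and 16.3-fold in B. Heyl, a transcriptional repressor that Notch induces (chromosome 4, 123233556 to 123249875), ran from 0 to 1397 CPM (median 106.2) in supporting cells and from 0 to 349.5 (median 0) in the others, which overlapped. Pooled, Heyl was 12.6-fold higher (8.96 to 18.02), at 14.05-fold in A and 14.5-fold in B.

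Promoter windows of the higher Notch genes are shown because the pathway acts on transcription: RBPJ, the DNA-binding partner of Notch, recognises a TGGGAA core, and Hes and Hey repressors bind E-boxes such as CACGTG. RefSeq has windows of 250 bases before its annotated start for Lfng (chr5:140607091-140607340, plus strand, GRCm38.p6) and Jag1 (chr2:137116521-137116770, minus strand). The GENCODE M21 transcript of either gene starts inside its window, so each line gives only the bases ahead of that transcript (Lfng chr5:140607091-140607319; Jag1 chr2:137116645-137116770), 5′ to 3′ on the gene's strand, with TGGGAA on either strand (TTCCCA on the strand shown) and CACGTG in capitals.
Lfng: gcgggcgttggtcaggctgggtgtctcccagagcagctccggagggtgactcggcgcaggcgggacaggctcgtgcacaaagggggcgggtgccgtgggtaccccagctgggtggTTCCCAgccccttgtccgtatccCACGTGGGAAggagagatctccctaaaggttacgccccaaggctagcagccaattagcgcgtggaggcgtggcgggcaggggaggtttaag
Jag1: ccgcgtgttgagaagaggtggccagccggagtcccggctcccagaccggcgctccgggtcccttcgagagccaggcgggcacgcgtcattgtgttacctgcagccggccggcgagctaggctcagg
The Lfng window of 250 bases holds TGGGAA on each strand, and its CACGTG overlaps the TGGGAA nearer the start. The Jag1 window holds neither motif. TGGGAA occurs in 21.6% and CACGTG in 6.02% of 32851 such windows, and both in 1.19%. A match describes letters in a window and not a bound site.

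The other Notch genes named were lower or not called. Notch1 was at 262 and 279 CPM (ratio 0.939, 0.769 to 1.14) and Notch2 at 100.3 and 162.1. Adam10, the protease that cleaves Notch receptors, and the coactivator gene Maml3 stood at 174.4 and 185 CPM against 235 and 294. The ligand gene Jag2 and the Hes-related Hes6 had 0 UMIs in the supporting cells, at least 2.15- and 1.95-fold below their 14.1 and 12.7 CPM in the others. Another Fringe gene, Rfng, was at 4.36 against 23.4 CPM (5.38-fold lower, 1.43 to 45.3, from 2 UMIs).

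For Wnt signalling, 27 of 36 genes were measured, 4 called higher and 7 lower, and the median was 0.16. Along with Lgr6, the receptor gene Fzd4 was higher, from 0 to 953 CPM (median 314) per supporting cell and from 0 to 794 (median 0) per other cell. Its pooled 353 against 33.5 CPM was 10.5-fold (8.17 to 13.7), at 8.84- and 10.1-fold in A and B, although single cells overlapped. The transcription factor gene Tcf7l2 and the receptor gene Tnfrsf19 were just over 2-fold higher, at 2.33 (1.57 to 3.39; 1.06 in A and 7.03 in B) and 2.04 (1.58 to 2.60). The ligand genes were lower: Wnt5a at 93.7 against 237 CPM (2.53-fold, 1.86 to 3.52; 2.27 in A and 8.77 in B), Wnt7a with 1 UMI against 49.9 CPM (22.9-fold, 4.05 to 910.2) and Wnt4 with 0 UMIs, at least 2.41-fold lower. Axin2, a feedback inhibitor that Wnt signalling induces, was at 26.2 against 112.2 CPM (4.29-fold lower, 2.42 to 8.38; 7.68 in A and 1.92 in B). Fzd2 was 18.4-fold lower (5.03 to 152.5), at 5.54-fold in B and 0 UMIs in A. The 1 UMI of Wnt7a was in A, at 12.5-fold. The secreted antagonist gene Frzb and the feedback inhibitor gene Nkd1 were 3.19-fold (1.58 to 7.51) and 5.15-fold (1.37 to 43.4) lower than in the pool, but Frzb was above its 7.07 CPM in WT Cells 1 and Nkd1 just above its 3.71 in WT Cells 2. Sfrp1 and Lrp6, for a secreted antagonist and a coreceptor, were at ratios of 0.741 and 0.724.

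Of 18 FGF genes 11 were measured, 2 called higher and 3 lower, with a median of 0.07, beside 7.59% called higher and 17.4% lower of all genes tested. The 3 lower genes encode receptors, of which Fgfr3 rests on the 1 UMI given above. Fgfr1 ranged from 0 to 282 CPM (median 41.4) per supporting cell and from 0 to 1882 (median 539.9) per other cell, so that every supporting cell lay below the other cells' median. Pooled, it was 8.56-fold lower (5.98 to 12.7), at 8.39-fold in A and 6.83-fold in B, and lower than in each cluster. Fgfr2 was at 17.4 against 115.2 CPM (6.61-fold, 3.32 to 15.4), a difference that rests on WT Cells 2 alone (389 CPM), since WT Cells 1 and WT Cells 3 were at 11.8 and 18.7. Fgf10 was higher, at 71.9 against 17.7 CPM (4.05-fold, 2.54 to 6.38), in 10 supporting cells. Dusp6, a phosphatase that FGF signalling induces, was at 214 against 49.2 CPM (4.34-fold, 3.33 to 5.64), with 272 against 50.4 CPM in A and 62.8 against 48.3 in B, where it was not 2-fold.

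The TGF-beta and BMP list had 4 genes higher and 8 lower of 20 measured among 23, with a median of -0.05. Bmp6, a ligand gene, was at 100.3 against 363 CPM (3.62-fold lower, 2.69 to 4.97) and lower than in every cluster. Ltbp2, which encodes a latent TGF-beta binding protein of the matrix, was 11.4-fold lower (6.97 to 19.96), but WT Cells 2 were at 28.4 CPM against 34.9 in supporting cells. Tgfb2 and Bmpr2 were not called, at ratios of 0.982 and 1.08. The BMP targets Id1, Id2 and Id3 were all called higher, Id1 and Id3 being named after their values were seen: Id1 by 3.17-fold (1.70 to 5.70) and Id3 by 2.18-fold (1.78 to 2.66).

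Both connexins of the cochlear gap junction network were higher in the supporting cells; of the 9 genes in the list only these 2 reached 10 CPM. Gjb2 (connexin 26) ran from 247 to 5953 CPM (median 2545) per supporting cell and from 0 to 4270.4 (median 1010.3) per other cell, and Gjb6 (connexin 30) from 0 to 4571 (median 1186) and from 0 to 2213 (median 205). Ranges overlapped for both. Pooled, Gjb2 was at 2759 against 1139 CPM, 2.42-fold (2.27 to 2.59), and Gjb6 at 1259.8 against 329, 3.83-fold (3.45 to 4.25). The letters gave 2.25- and 2.56-fold for Gjb2 and 3.48- and 3.90-fold for Gjb6. Gja1 (connexin 43) had 0 UMIs in the supporting cells.

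Ion transport genes were called in both directions. The list of potassium recycling and glutamate uptake had 4 higher and 3 lower of 13 measured among 18, with a median of -0.11. Over all genes tested the shares were 7.59% higher and 17.4% lower. Slc12a7, a potassium-chloride cotransporter of Deiters cells (KCC4), ran from 0 to 6714 CPM (median 3463) per supporting cell and from 0 to 1468 (median 230.1) per other cell. It was 11.5-fold higher (10.6 to 12.6) at 3213 against 279 CPM, at 12.3-fold in A and 11.8-fold in B, with the other clusters between 258 and 288 CPM. Kcnk1, a potassium leak channel gene, was 3.13-fold higher (2.50 to 3.92; 3.69 in A and 1.64 in B), and Atp1b3, a sodium pump beta subunit gene, 2.85-fold (2.11 to 3.82). The sodium pump regulator gene Fxyd1 was lower (5.60-fold, 3.71 to 8.89; 7.63 in A and 3.22 in B), as was the sodium-potassium-chloride cotransporter gene Slc12a2 (2.96-fold, 2.07 to 4.40). The potassium channel genes Kcnj16 and Kcnj10 were abundant in all control clusters, with ratios of 0.928 and 1.24, and Kcnj10 lay above the others in A (1.57) and below them in B (0.677).

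All 23 tight and adherens junction genes were measured, 3 called higher and 3 lower, with a median of 0.10. Cdh1 and Tjp1, for E-cadherin and a tight junction scaffold, were at 239.8 and 307 CPM against 454 and 393, neither 2-fold apart. Cdh2, for N-cadherin, named after its values were seen, was at 106.8 CPM in 14 supporting cells against 4.35 in the others (24.5-fold, 13.1 to 49.3; 27.4 in A and 14.9 in B).

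**Figure D4:**
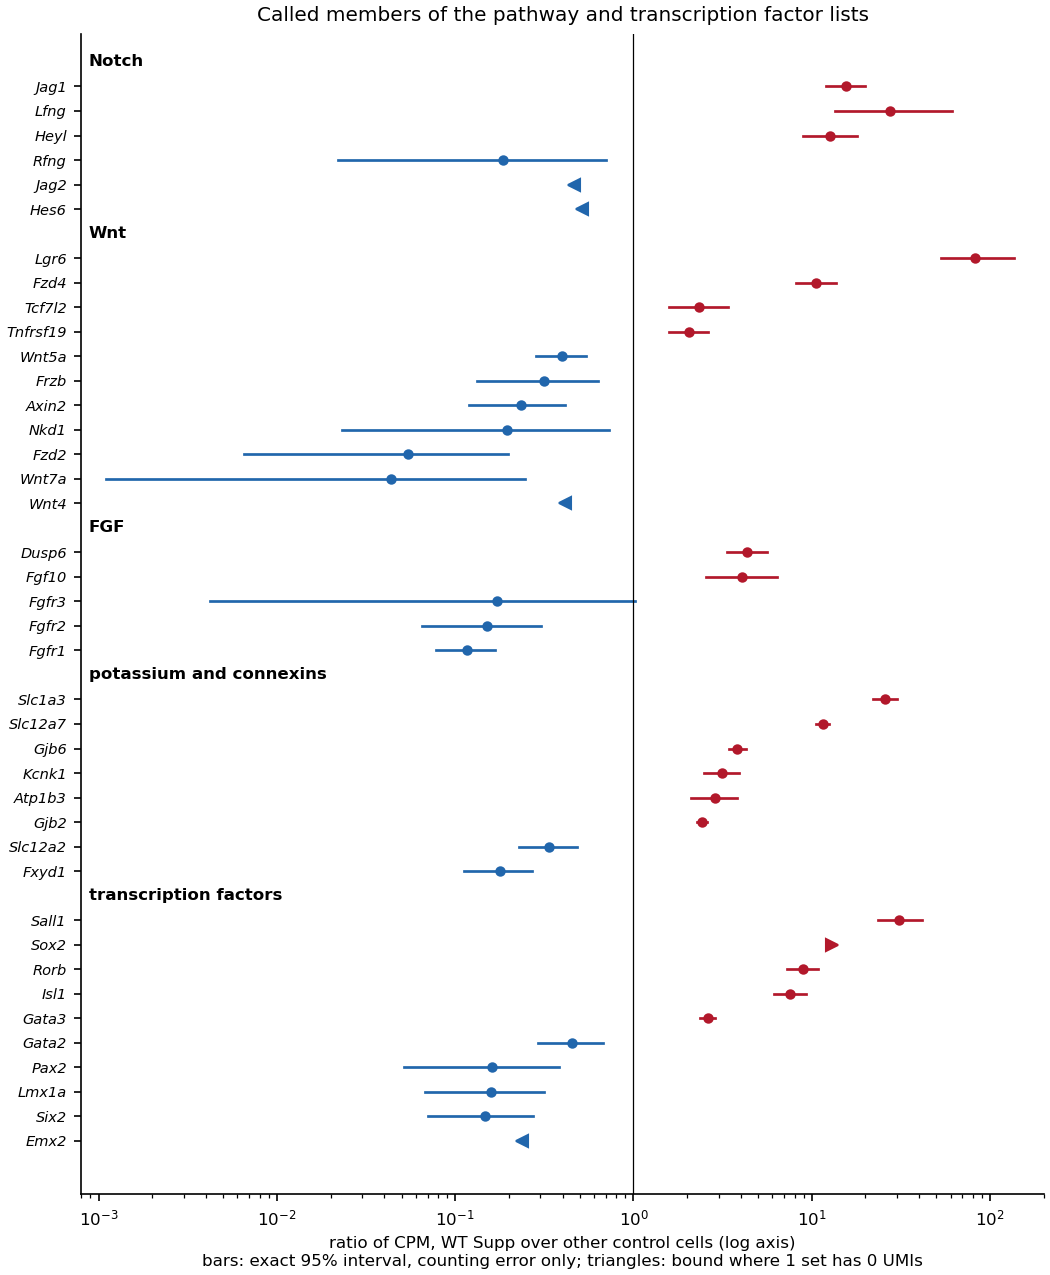
Ratio of pooled CPM, supporting cells over the other control cells, on a log axis, for called members of the Notch, Wnt, FGF, connexin, potassium and transcription factor lists that are named in the text. Points have exact 95% intervals for counting error, and triangles are bounds where a set had 0 UMIs. Lgr6, Sall1, Lfng and Slc1a3 have the highest ratios with an interval, and the interval of Fgfr3 reaches past 1.

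Transcription factors of the inner ear were called higher for 5 and lower for 5 of 22 measured among 30, with a median of -0.20. Over all genes tested 7.59% were higher and 17.4% lower. Sall1, a zinc finger repressor, ran from 0 to 3377 CPM (median 583) per supporting cell and from 0 to 539 (median 0) per other cell. At 632 against 20.4 CPM it was 30.9-fold higher (23.4 to 41.5), at 22.2-fold in A and 43.7-fold in B. Rorb, an orphan nuclear receptor gene, had a UMI in all 29 supporting cells and 43 others and was 8.90-fold higher (7.29 to 10.9; 6.14 in A and 13.7 in B). Isl1, a LIM homeodomain factor gene, was in 27 and 42 cells and 7.55-fold higher (6.16 to 9.26). Gata3, needed for cochlear development, was at 1275 against 490.2 CPM (2.60-fold, 2.36 to 2.86), 1.95-fold in A and 4.22-fold in B. In the other clusters Sall1, Isl1 and Gata3 were highest in WT Cells 2, at 43.3, 145.8 and 830.4 CPM, all below the supporting cells. Emx2 had 0 UMIs in supporting cells and 27.5 CPM in the others, at least 4.20-fold more. Pax2, Lmx1a and Six2 were 6.24-fold (2.63 to 19.4), 6.32-fold (3.17 to 14.8) and 6.78-fold (3.65 to 14.2) lower, and Gata2 2.21-fold (1.48 to 3.43). Letter A alone gave 3.87-fold for Gata2 and B 1.04-fold, and for Lmx1a 5.55- and 13.3-fold. Pax2 and Gata2 were lower than in WT Cells 2 (238 and 324 CPM) but above WT Cells 1, at 4.12 and 48.3. Nr2f1 was at 998 CPM, close to WT Cells 1 and WT Cells 3 (989.9 and 899.9), while WT Cells 2 were at 97.6.

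Genes of the Hensen, Claudius, outer sulcus and root cell list were mostly lower. The list had 1 gene higher, Lgr6, and 8 lower of 13 measured among 16, with a median of -2.21 (-2.64 in A and -1.98 in B). Slc26a4, the anion exchanger pendrin of outer sulcus and root cells, ran from 0 to 452 CPM (median 109.8) per supporting cell and from 41.8 to 3985 (median 934) per other cell. Every supporting cell lay below the other cells' median. It was 7.86-fold lower (6.11 to 10.3), at 7.61-fold in A and 8.91-fold in B, and Epyc, for the matrix proteoglycan epiphycan, was 5.45-fold lower (4.79 to 6.24; 6.54 in A and 3.64 in B). Both were lower than in each of the 3 clusters. P2rx2, for an ATP-gated channel, was at 649.5 and 645 CPM (ratio 1.01). Summed over the list, supporting cells were at 1359 to 7592 CPM (median 2871) and other cells at 435 to 18891 (median 6137).

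Tectorial membrane genes were divided, with 3 higher and 5 lower of 14 measured among 15 in the interdental, inner sulcus and tectorial membrane list and a median of -0.36. Otog, for otogelin, ran from 347 to 4131 CPM (median 1728) in supporting cells and from 0 to 4325 (median 228) in the others, and was 2.53-fold higher (2.34 to 2.74), at 4.23-fold in A and 1.46-fold in B. Otoa, for otoancorin, was 3.63-fold lower (3.02 to 4.41) and Ceacam16, for a protein of the tectorial membrane's striated sheet, 2.98-fold lower (2.54 to 3.52; 2.27 in A and 3.48 in B). For all 3 genes WT Cells 2 were lowest, at 80.3, 75.4 and 122.3 CPM against 1901, 257 and 344 in supporting cells. Tecta, for alpha-tectorin, named after its values were seen, had 19 UMIs in 3 supporting cells and 0 in all others, and its partner Tectb was in 7. Too few cells held Tecta for a call. The stria vascularis list had 0 higher and 2 lower (Slc12a2 and the growth factor receptor gene Met, which was 14.3-fold lower, 25.7 in A and 6.77 in B) of 8 measured among 15, with a median of -1.72, or -1.57 with Esrrb, at 0 UMIs, set at its bound. Of Reissner membrane genes 3 of 7 were measured and none called, with a median of 0.51, and Lrp2, for megalin, was at 56.7 and 160.4 CPM.

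**Figure D5:**
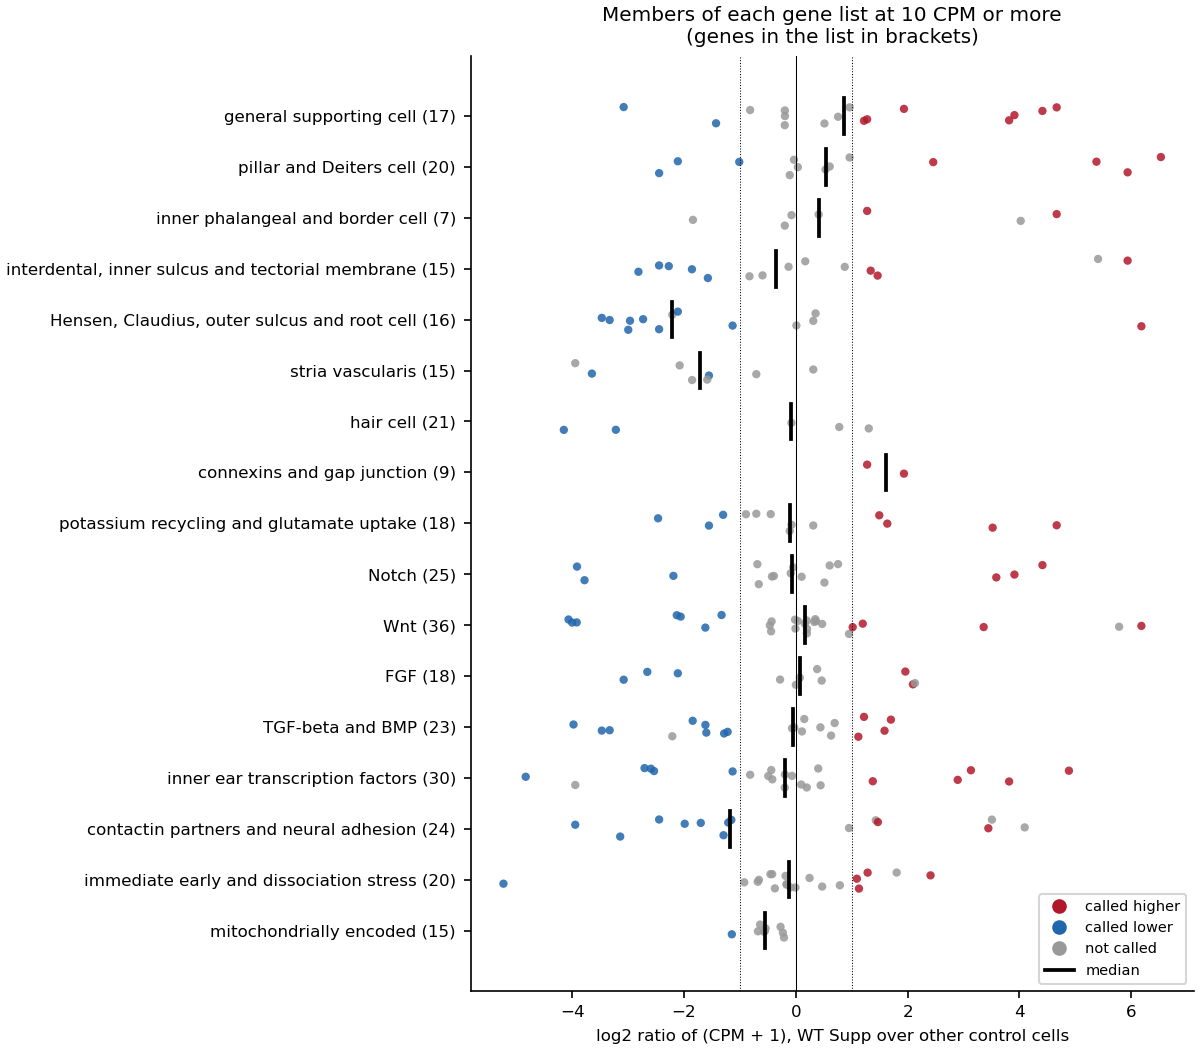
Log2 ratio of (CPM + 1), supporting cells over the other control cells, for each member at 10 CPM or more of 17 of the 32 gene lists. Red points were called higher, blue lower and grey neither, black bars are medians, and dotted lines mark 2-fold. The medians run from -2.21 in the Hensen, Claudius, outer sulcus and root cell list to 1.61 in the connexin list.

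The genes with the lowest ratios were ones not seen in the supporting cells. Zdhhc9, a palmitoyltransferase gene, was at 80.7 CPM (70.8 to 91.6) in 66 other cells and had 0 UMIs in 29 supporting cells, at least 12.3-fold lower. After thinning it was found in 35.7% of the other cells, against 0% (0 to 11.9) of the supporting cells. Adam11, Adcy5 (an adenylyl cyclase), Klf15 (a zinc finger transcription factor), Spr, Fmn2 (a formin), Mrap2, Pelp1, Wrnip1, Hspb1 (a small heat-shock protein), Tpbg, Hist1h2bc, Zfp704, F3 (tissue factor) and Aifm1 complete the lowest 15. All had 0 UMIs in the supporting cells and 31.5 to 57.9 CPM in the others, which makes them at least 4.81- to 8.86-fold lower. These limits cover counting error over 29 cells and do not show absence.

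Among genes at 100 CPM or more, Lmod1, for an actin nucleator, had the lowest ratio. It was in 2 supporting cells, both of letter B, and in 75 others, at 4.36 against 155.4 CPM (35.6-fold lower, 9.81 to 295). WT Cells 2 were low as well, at 19.8 CPM. Sdcbp, for the adaptor syntenin, had 2 UMIs (28.04-fold lower, 7.71 to 232), Lamb1, for a laminin chain, 3 (22.3-fold, 7.57 to 108.4) and Kirrel, for a nephrin-like adhesion protein, 8 (15.3-fold, 7.71 to 35.5). Entpd8, Fam212b, Mob3b, Lrp1, Sox11 and Vldlr followed, at 6.54 to 28.3 CPM in supporting cells and 117.5 to 341 in the others. The transcription factor gene Sox11 was 12.04-fold lower (7.01 to 22.7), at 10.4-fold in A and 21.5-fold in B, and low against each cluster. The Sox11 folds rest on 11 UMIs of the supporting cells in A and 2 in B, and those of the other 9 genes on 0 to 5 in each letter. Lmod1 and Sdcbp had 0 UMIs in A and were 10.9- and 8.31-fold lower in B, and Lamb1 and Mob3b had 0 in B and were 18.5- and 10.6-fold lower in A. Kirrel was 17.1- and 10.02-fold, Entpd8 11.5- and 19.9-fold and Lrp1 17.4- and 7.41-fold lower in A and B. Entpd8 was also low in WT Cells 2, where no cell was above 65.2 CPM, so its difference rests on WT Cells 1 and WT Cells 3.

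Neural adhesion genes were mostly low beside Cntn1. The contactin partner list had 2 higher and 8 lower of 14 measured among 24, with a median of -1.18 (-1.15 with Cadm2 at its bound). Ncam1 was 9.72-fold lower (3.75 to 35.9; 15.8 in A and 4.84 in B), with 252 CPM in WT Cells 2 and 17.1 in WT Cells 1, and Cadm1 4.01-fold (2.77 to 6.03). Nrcam, a contactin partner at neuronal membranes, was instead higher, at 338 CPM in 23 of 29 cells against 30.1 in 35 others (11.2-fold, 8.59 to 14.7; 9.31 in A and 14.98 in B). Against WT Cells 2 alone the list's median was 0.53, and those cells had 63.02 CPM of Cntn1 and 79.1 of Cadm1.

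The microtubule list had 3 higher and 4 lower of 21 measured among 26, with a median of 0.36, while its summed level was 4024 CPM against 9345. Map1b, a microtubule-associated protein gene, makes most of that sum in the other cells and ran from 465 to 2797 CPM (median 1351) per supporting cell and from 435 to 27579 (median 7155) per other cell. Every supporting cell lay below the other cells' median. Pooled, it was 5.45-fold lower (5.02 to 5.93), at 5.62-fold in A and 4.91-fold in B. Tubb5, for a beta tubulin, was 2.79-fold lower (2.20 to 3.58), and Tuba1b, for an alpha tubulin, was at a ratio of 1.07. Of 22 S100 and calcium-binding genes, 18 were measured, 2 called higher and 3 lower, with a median of -0.27, and Calm2, for calmodulin, was 2.11-fold lower (1.82 to 2.45). S100a6, named after its values were seen, was at 67.6 CPM in 11 supporting cells against 2 UMIs in the others (ratio 100.9, 25.7 to 870.0; 48.2 in A). Intermediate filament and actin genes had 2 higher and 2 lower of 19 measured among 27, a median of 0.07 and Actb at 2282 against 3987 CPM.

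Cell cycle genes were 2 higher and 2 lower of 10 measured among 19, with a median of 0.58. The arrest gene Cdkn1a was at 309.5 against 72.7 CPM (4.26-fold, 3.42 to 5.29; 3.97 in A and 4.78 in B), and Cdkn1b, the inhibitor that holds supporting cells out of the cycle, at 386 against 198, just under 2-fold. Mki67, Top2a, Ccna2 and Ccnb1, genes of dividing cells, had 0 UMIs in the supporting cells.

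Immediate early genes, which tissue dissociation can induce, were measured for all 20 in the list, 4 called higher and 1 lower, with a median of -0.13 (-0.37 in A and 0.59 in B). Fos was at 2265 against 1061 CPM (2.13-fold, 1.99 to 2.29; 1.54 in A and 3.64 in B) and Fosb at 3664 against 1674 (2.19-fold, 2.07 to 2.31). WT Cells 3 exceeded the supporting cells in both, at 3759.9 and 6333 CPM. Summed over the list, supporting cells were at 1281 to 50944 CPM (median 13162) and other cells at 821 to 72484 (median 3274). Mitochondrial transcripts were 9 measured of 15, 0 higher and 1 lower, with a median of -0.55. They made up a median of 3.25% of a supporting cell's UMIs (1.81 to 6.02) and 4.25% of another cell's (0.805 to 16.1). The part of immediate early genes, mitochondrial share and depth in the other differences was not tested.

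Markers of other cell types were mostly at or near 0 in the supporting cells. Of 21 hair cell genes, 16 had 0 UMIs in the supporting cells, among them Atoh1, Pou4f3, Gfi1, Otof, Slc26a5, Ocm and Ptprq; 5 were measured, 0 called higher and 2 lower, with a median of -0.08. Of those measured, Myo7a was at 37.1 and 14.4 CPM, Myo6 at 156.9 and 165.8, Pcdh15 at 375 and 218 and Espn at 4.36 and 48.9. Schwann and satellite glia genes were 1 higher (Pllp, 4.48-fold, 3.09 in A and 7.09 in B) and 2 lower (Cnp and Erbb3) of 6 measured among 12, with a median of -0.10. Their summed level was 403 CPM (0 to 1164 per cell) against 548 (0 to 2141), and Prx, Ncmap and Cdh19 had 0 UMIs. The glial marker Mbp was at 41.4 CPM against 63.96. All 10 neuron, 9 leukocyte and 5 erythroid genes had 0 UMIs in the supporting cells. Of the leukocyte list, Cd74 alone was measured, from 48 UMIs in other cells of letter A, at a log2 ratio of -4.09 or -1.298 at its bound. Of 11 fibroblast and spiral ligament genes 3 were measured and none called, with a median of 1.93: Lum was at 238 and 336 CPM, Dcn at 89.4 and 22.8, Pdgfra at 7 and 3 UMIs, and Col1a1, Col1a2 and Col3a1 at 0. Pecam1 alone of 8 endothelial and pericyte genes was measured, at 10.9 and 6.36 CPM, and Bpifa1 alone of 10 middle ear mucosa genes, at 58.8 and 101.8 CPM. The part of RNA from these cell types in the levels above was not tested.

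Within the supporting cells the letters differed as well. Of 3102 genes at 100 CPM or more in a letter, 336 (10.8%) were at least 2-fold higher in the 20 cells of A and 4.03% in the 9 cells of B, with detection in 5 or more cells of the higher letter and the same limit on single cells. Because 5 cells are a larger share of 9 than of 20, the rule is stricter for B, and the percentages cannot be compared. Rnf213, a ubiquitin ligase gene, was at 196.1 CPM (151.3 to 249.9) in A and had 0 UMIs in B. With B set at 3 counts it was 8.32-fold higher, and the exact lower limit was 6.58. Lmtk2, Emc7, Ankfy1 and Cspg5 also had 0 UMIs in B and 114.6 to 144.8 CPM in A. Their bounds were 4.87- to 6.15-fold, with exact lower limits of 3.77 to 4.81. In B, Spp1, for osteopontin, was at 102.1 CPM (54.4 to 174.6) and had 0 UMIs in A. With A set at 3 counts it was 11.3-fold higher, and the exact lower limit was 7.93. Bpifa1, a secreted airway protein gene, was at 196.3 CPM in B against 6.03 in A (32.5-fold, 8.11 to 283). Both genes had the same split in the other control cells, at 1.503 and 399 CPM in A and B for Spp1 and 3.01 and 181 for Bpifa1. Socs4, Isoc1 and Soga1 were 24.7-fold (5.97 to 219), 12.4-fold (5.68 to 30.7) and 7.29-fold (2.48 to 25.9) higher in B. S100a1 and Cntn1 were not 2-fold apart between the letters, at A to B ratios of 1.14 (1.05 to 1.24) and 0.768 (0.391 to 1.58), and Lgr5 at 0.602 (0.421 to 0.866).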

How the data were processed

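Counts of 360 single cells, 180 of them controls, were used as the authors deposited them: whole-number UMI counts per gene, not normalized. Alignment with STAR to mm10 and counting with HTSeq are named in the submitters' processing notes, while the sources used here give no versions, annotation release, strand use or UMI collapsing. Clusters and their names came from the authors' deposited annotation. Of the control cells, 22 were not compared, 20 in other clusters and 2 in none, and of the GAP cells the 4 in cluster 4 alone are described. No doublet caller was run on these singly sorted cells, 0 columns of values belonged to no sample, and 0 pairs of cells had identical counts.

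UMIs were summed over cells and scaled to CPM by Python 3.11.15 with numpy 2.4.6, pandas 2.3.3 and scipy 1.17.1. Log2 ratios used a pseudocount of 1 CPM. Intervals are exact Poisson (levels), conditional binomial (ratios) or Clopper-Pearson (shares of cells), at 95%, for counting error only. PCR duplicates that UMIs did not resolve would make them too narrow. A count of 0 was set to 3 counts over the set for bounds, which leave out the counting error of the set with UMIs. The calculation was checked on simulated data. The letters and clusters were compared by value only, since each cell is a sample in the labels and no animals are named. Of 48440 gene IDs, 48058 matched GENCODE M21, which gave coordinates and overlaps, and promoters came from RefSeq.

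The members, the 464 genes in 32 lists and the rules were chosen with earlier results of these data known. Genes were named by rule: the given markers with Fbxo2 and Epcam, the 15 highest and lowest ratios, the 10 highest and lowest at 100 CPM or more, the 4 members of each list with most UMIs, called members of the Notch, Wnt, FGF, connexin, potassium, supporting cell, pillar and Deiters cell and transcription factor lists, and the 5 highest and lowest between letters. Of the genes this rule takes, a few are not reported here and others are only counted in their lists. Genes printed at 0 UMIs, and Cadm2, Cdh2, Cnp, Esrrb, Fabp7, Id1, Id3, Prox1, S100a6 and Tecta, were chosen after their values were seen. Predicted genes were not named. Alternatives were other scalings (TMM from edgeR 4.0.16 under R 4.3.3, median of ratios, mean of per-cell CPM), cells of 10000 UMIs or more, thinning to 8000 UMIs, each letter alone, a pseudocount of 10 CPM, filters of 50 CPM or none, single clusters, equal weights, all other control cells and leaving out the supporting cell with most UMIs of a gene. The same share of cells, and no condition on cells and letters, were added after seeing the data. Figures were drawn with matplotlib 3.10.9.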

Additional observations from a re-analysis of the deposited data

Results flagged for a closer look

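Outside the comparison, 4 cells of the other genotype, which carries the GAP allele for Gfi1, Atoh1 and Pou4f3, were placed by the deposited annotation in the same cluster as the supporting cells. They held 47994 UMIs in all. Atoh1 was at 83.3 CPM (22.7 to 213) and Pou4f3 at 83.3 CPM (22.7 to 213), each from 4 UMIs in 3 of the 4 cells, and both had 0 UMIs in the 29 control supporting cells, which allows up to 6.54 CPM. Gfi1 had 1 UMI. These levels drew attention because they lie above the control level in cells that the comparison does not use. Slc1a3 was at 2229 CPM (1827 to 2694) in these cells, Slitrk6 at 2709 (2263 to 3216), Jag1 at 479 (304 to 719), Lfng at 396 (238 to 618) and Lgr6 at 271 (144.2 to 463). S100a1 was at 10564 CPM (9664 to 11525). Lgr5 had 5 UMIs and Cntn1 1. The difference between the genotypes was not tested.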

How the results depend on the processing

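The counts of 744 higher and 1705 lower genes became 238 and 2721 without letter A, which leaves 9 supporting cells and moves the median log2 ratio over all genes from -0.01 to -0.16. Without letter A, 1.48% of the genes tested in place of 4.25% were higher than in every cluster. They were 606 and 655 at 50 CPM or more, 1024 and 1291 against WT Cells 2 alone, and 1117 and 784 against WT Cells 3 alone. Without the conditions on cells and letters 1571 genes were higher. TMM scaling (factor 1.05) gave 670 and 1836, and median of ratios (1.03) 710 and 1771. The Lgr5 ratio was 1.25 by the mean of per-cell CPM, 1.34 after thinning, 4.69 without letter A, 0.465 without letter B, and 6.71, 0.310 and 10.2 against WT Cells 1, 2 and 3. For S100a1 it was 1.38 under TMM, 1.39 after thinning, 1.29 without letter A, 1.53 without letter B, 1.35 and 1.70 against WT Cells 1 and 2, and 1.38 against all other control cells. For Cntn1 it was 0.127 against WT Cells 1 and 1.45, in the opposite direction, against WT Cells 2.

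Of the other named genes that were called, 10 changed direction under at least 1 of 14 alternatives, each time against a single cluster. Against WT Cells 1 the log2 ratio was 0.53 for Fgfr2, 1.19 for Frzb, 0.23 for Gata2 and 1.22 for Pax2. Against WT Cells 2 it was 1.49 for Ceacam16, 0.29 for Ltbp2, 0.19 for Nkd1 and 1.76 for Otoa, and against WT Cells 3 it was -0.73 for Fos, -0.79 for Fosb and 0.71 for Pax2. Of the same genes, 26.4% were no longer 2-fold in the called direction under at least 1 alternative. Their ratio kept its direction but left its counting interval for 44 genes against WT Cells 2, 26 against WT Cells 3, 22 against WT Cells 1, 27 without letter A, 21 without letter B, 27 with a pseudocount of 10 CPM, and 0 to 12 under each of the others. Of 30 list medians 19 moved by more than 1.5-fold under at least 1 alternative, in 53 of 441 comparisons. The fibroblast median became -0.50 with no filter on level, and the contactin median 0.53 against WT Cells 2. Beyond the smaller sets of cells and genes, the cause was not tested. No paired analysis was possible because no result comes from a test and replicate numbers follow accession order. Both sets hold cells of letters A and B, whose values are given side by side. With 458805 UMIs in the supporting cells, a gene at 0 there may still be at up to 6.54 CPM.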
